A study of Homo sapiens with 8 samples.

Results

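The genes described here are 46 genes that are known targets of the transcription factor ATF4 or that serve the amino acid supply of the cell, out of 55679 gene identifiers counted. They were chosen by name, with earlier results of these data known. A row of the count table belonged to the set when its symbol equalled a member, and each of the 46 symbols matched 1 identifier. The names fall into 11 stress regulators, 7 amino acid transporters, 6 enzymes of serine and glycine synthesis and one-carbon metabolism, 12 aminoacyl-tRNA synthetases, 7 other enzymes of amino acid and carbon metabolism and 3 other targets. All 46 averaged 1 CPM or more over the 8 libraries, the level above which genes were compared (CPM is the count on a gene scaled to the total count on genes of its library). The ratios of Acetalax-treated to control cells, and of CE to parental control cells, belong to the rule that set up this group of genes, so these ratios are given as a description. Where a fit across all genes is quoted for them, the members called stand beside the share of all genes called, and nothing is read from either.

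ATF4 is the main transcription factor of the integrated stress response. Kinases that sense amino acid shortage, unfolded proteins in the endoplasmic reticulum, viral RNA or mitochondrial damage phosphorylate the translation initiation factor eIF2, which lowers protein synthesis in general but raises translation of the ATF4 mRNA, so the activity of ATF4 need not follow its mRNA level. With partners of the C/EBP family, ATF4 binds composite elements in promoters and induces amino acid transporters, synthetic enzymes and tRNA synthetases as well as the regulators DDIT3, TRIB3, CHAC1 and PPP1R15A, of which the last directs a phosphatase to eIF2 and ends the response.

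RNA-seq was performed on MDA-MB468 (MDAMB468 in the labels) and BT549 cells, established lines of triple-negative breast cancer (TNBC), which lacks estrogen and progesterone receptors and HER2 amplification. For each line, parental cells and CE cells (chronic exposure) were each sequenced as control and after Acetalax, a laxative drug related to bisacodyl, at 1 μM for 6 h. The CE cells had grown in rising Acetalax up to 40 μM, were kept without drug for 2 weeks and were described as resistant clones, with the number of clones not given in the sources used here. Each of the 8 conditions was 1 library. No difference between 2 conditions of a line therefore has a replicate check, and the intervals given below are 95% intervals for counting error only.

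The libraries had from 42261122 to 54241728 counts on genes, a 1.28-fold range. EPCAM, an epithelial surface protein, was at 409 to 438 CPM in the 4 MDA-MB468 libraries and at no more than 0.189 CPM in BT549. VIM, the mesenchymal filament vimentin, was at 864 to 1414 CPM in BT549 and at no more than 8.94 CPM in MDA-MB468. ESR1 and PGR, which encode the estrogen and progesterone receptors, were at no more than 5.15 and 0.627 CPM, ERBB2, which encodes HER2, was at 41.2 to 95.2 CPM, and the blood cell genes CD3E and HBB had no count in any library.

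Sequences around the starts of some of these genes hold a recurring element, and they are shown to let it be compared between the members. Windows of 250 bases before to 50 bases after each transcription start (RefSeq, GRCh38.p14) were available for 37 of the 46 members. The letters TGATGNAA, the core of the composite element for ATF4 and C/EBP proteins (CARE), were searched on both strands. They occurred near 15 of these 37 genes (40.5%), against 1217 of all 27305 genes with a window (4.46%) and 3.62% of all 35116 windows. The list of members was drawn from genes known as ATF4 targets, so this share describes the list, and a match is a description and not a binding site. The upstream 250 bases of CHAC1 and ASNS are given first, because CHAC1 differed in sign between the lines and ASNS had the largest CPM ratios in BT549, followed by those of PPP1R15A, which was higher after Acetalax in each background. Capitals mark TGATGNAA or its reverse complement TTNCATCA in CHAC1 and ASNS and TGACGTCA in PPP1R15A.
CHAC1, chr15:40953221-40953470, strand +: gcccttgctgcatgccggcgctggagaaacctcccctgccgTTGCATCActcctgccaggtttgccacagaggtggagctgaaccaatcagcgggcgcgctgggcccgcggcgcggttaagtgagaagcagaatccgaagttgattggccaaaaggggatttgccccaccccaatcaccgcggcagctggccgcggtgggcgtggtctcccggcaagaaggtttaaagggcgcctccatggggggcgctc
ASNS, chr7:97872409-97872658, strand -: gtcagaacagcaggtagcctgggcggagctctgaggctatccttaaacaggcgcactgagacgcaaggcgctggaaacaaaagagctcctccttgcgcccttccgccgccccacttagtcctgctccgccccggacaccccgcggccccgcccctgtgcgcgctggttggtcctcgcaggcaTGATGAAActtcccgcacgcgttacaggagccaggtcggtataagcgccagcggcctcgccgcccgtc
PPP1R15A, chr19:48872171-48872420, strand +: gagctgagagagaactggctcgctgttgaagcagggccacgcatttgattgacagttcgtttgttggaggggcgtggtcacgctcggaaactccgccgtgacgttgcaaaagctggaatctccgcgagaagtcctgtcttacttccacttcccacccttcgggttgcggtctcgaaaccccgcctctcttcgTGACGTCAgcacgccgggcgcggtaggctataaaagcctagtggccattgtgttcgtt

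The TGACGTCA in the PPP1R15A promoter is the palindromic element of CREB and ATF proteins, and it shares no position with a TGATGNAA. It was found in the window of 1 of the 37 members and in those of 614 of all 27305 genes (2.25%). In the ASNS promoter shown, the letters TGATGAAA began 68 bases before the start. Another annotated ASNS start (upstream bases chr7:97872166-97872415) had no match in its window. The other 13 genes with TGATGNAA are shown with 10 bases on each side (fewer where the window ends), on the strand of the gene and in capitals for the matched letters, to let the element be compared between transporters, synthetases and regulators.
SLC7A1, chr13:29595664-29595691, strand -: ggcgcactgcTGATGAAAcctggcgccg
SLC3A2, chr11:62881726-62881748, strand +: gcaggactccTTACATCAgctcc
SLC1A4, chr2:64989382-64989409, strand +: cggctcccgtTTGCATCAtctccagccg
SLC1A5, chr19:46784894-46784921, strand -: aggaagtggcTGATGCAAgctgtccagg
AARS, chr16:70289676-70289703, strand -: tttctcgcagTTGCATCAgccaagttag
CARS, chr11:3057408-3057435, strand -: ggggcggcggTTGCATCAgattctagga
GARS, chr7:30594835-30594862, strand +: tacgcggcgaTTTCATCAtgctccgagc
IARS, chr9:92293693-92293720, strand -: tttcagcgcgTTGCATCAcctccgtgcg
MARS, chr12:57488054-57488081, strand +: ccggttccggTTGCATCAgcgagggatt
NARS, chr18:57621805-57621832, strand -: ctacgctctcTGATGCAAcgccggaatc
TARS, chr5:33440957-33440984, strand +: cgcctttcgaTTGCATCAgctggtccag
CEBPG, chr19:33374061-33374088, strand +: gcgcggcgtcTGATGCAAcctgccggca
JDP2, chr14:75427996-75428023, strand +: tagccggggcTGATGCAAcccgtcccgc

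Of the 10 synthetases with a window 7 held these letters, as did 4 of the 6 transporters with one. The letters were near 3 of 10 stress regulators and 1 of 5 other amino acid and carbon enzymes. They were near 0 of 3 serine-glycine and one-carbon enzymes and 0 of 3 other targets. LARS, YARS and SLC7A11 had no window. No match says only that the letters are not within the window searched. TRIB3 and SESN2, for example, had a window without a match.

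For each gene the difference in log2(FPKM + 1) was taken between the treated library and its control, where FPKM is the CPM per kilobase of exon, and a difference of at least 0.5 in size was counted. This scale understates changes of genes at low level because 1 is added. In BT549 CE cells 21 of 46 members were higher and 2 lower, where 7.05% and 16.2% of the 14027 genes compared were higher and lower. In MDA-MB468 CE cells 1 member was higher and 8 were lower, where 4.25% and 4.24% of all genes were. In parental MDA-MB468 cells 5 were higher and 4 lower (7.66% and 8.15% of all genes), and in parental BT549 cells 3 were higher and 1 lower (3.33% and 5.17%). The median difference of the members was 0.37 in BT549 CE cells and -0.28 in MDA-MB468 CE cells, and -0.04 and 0.01 in the parental MDA-MB468 and BT549 cells, while the median of all genes lay between -0.10 and -0.03. In bulk RNA, fewer cells with a transcript and less of it per cell cannot be told apart.

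The split between higher and lower genes depends on how libraries are scaled. With TMM scaling in place of total counts, 24 members were higher and 1 was lower in BT549 CE cells. Of the 14027 genes, 1459 were higher and 1667 lower there with TMM, against 989 and 2266 with total counts. The genes higher among all that passed 0.5 thus went from 30.4% to 46.7%. Members lower in MDA-MB468 CE cells went from 8 to 5 with either TMM scaling or DESeq2 size factors. All genes lower there went from 595 to 438 and 417. Members higher in parental BT549 cells went from 3 to 5 with TMM, and all genes from 467 to 615. With DESeq2 size factors, 6 members were higher and 3 lower in parental MDA-MB468 cells. All genes higher and lower there went from 1075 and 1143 to 1280 and 817.

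**Figure D1:**
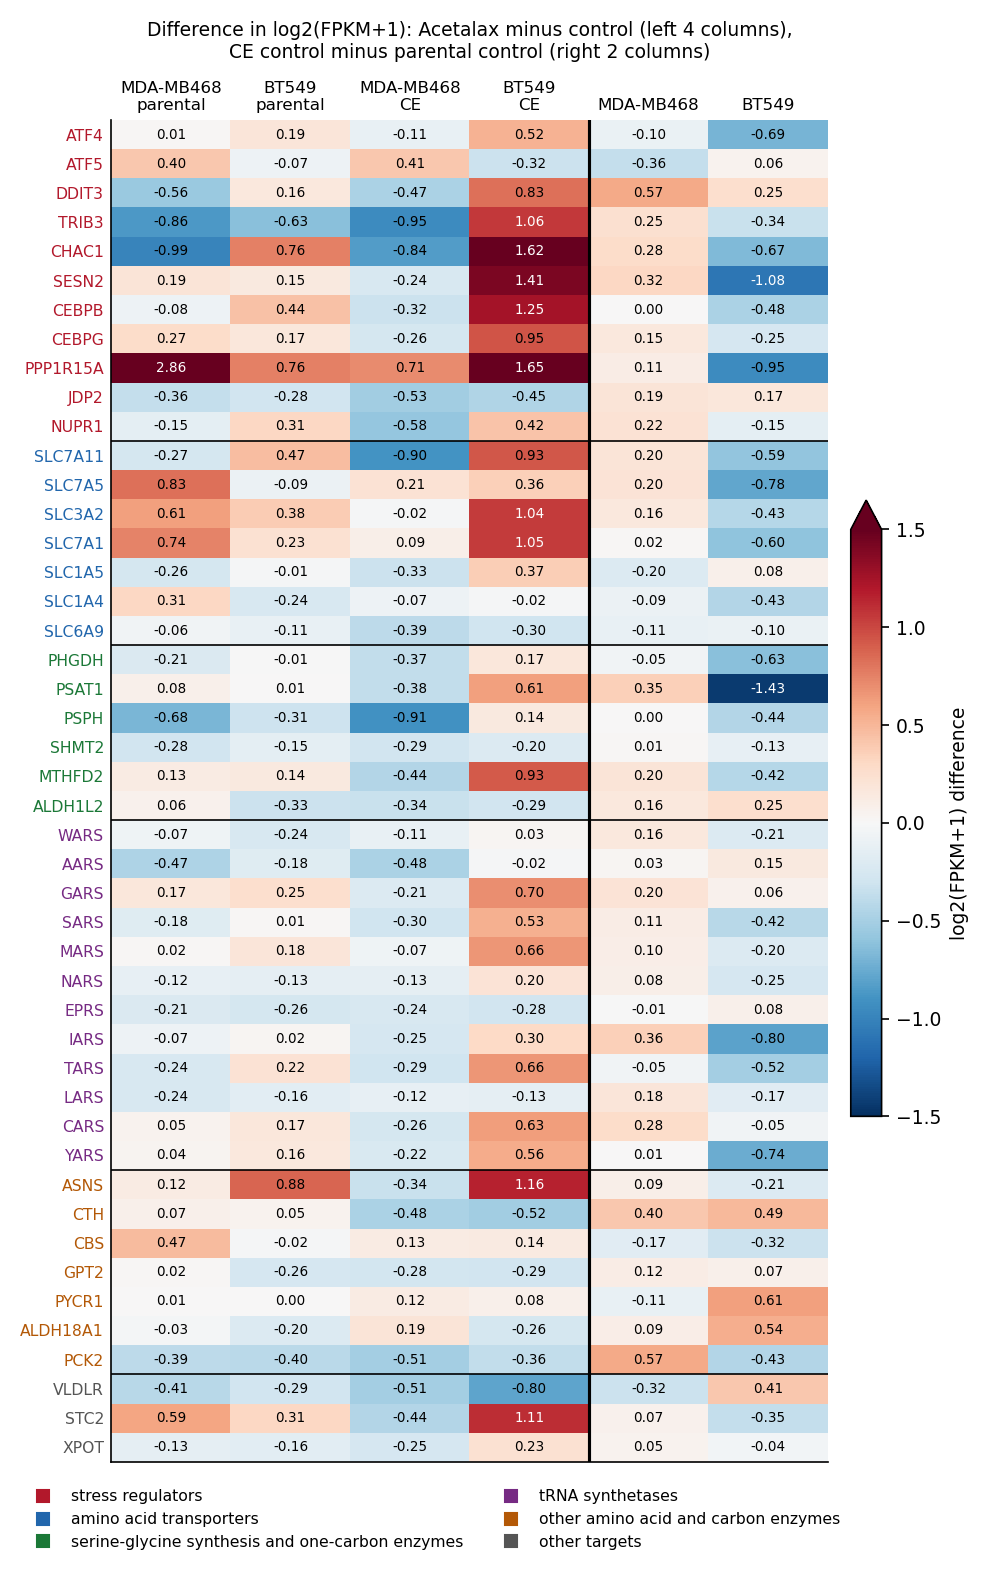
Heat map of the difference in log2(FPKM + 1) for the 46 members (rows, in 6 groups shown by the colour of the symbol) in the 4 Acetalax pairs and the 2 CE-parental control pairs (columns), 1 library against 1 library each. The colour scale ends at 1.5 and the printed values do not. BT549 CE cells hold most of the values above 0.5 (21 of 46), and the BT549 control pair has the largest number below -0.5 (12 of 46).

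Of the 11 stress regulators, 8 were higher by at least 0.5 and none lower in BT549 CE cells, with a median difference of 0.95. In MDA-MB468 CE cells 1 of 11 was higher and 4 were lower, with a median of -0.32. ATF4 itself (ENSG00000128272, chr22:39915700-39918691, in hg19 as all gene positions that follow) had 15150 to 47022 counts per library. Its level was 958 CPM in control and 968 CPM in Acetalax-treated parental MDA-MB468 cells, and 894 and 827 CPM in the CE cells of that line. In BT549 it was 454 and 516 CPM in parental cells and 279 and 402 CPM in CE cells. The ATF4 mRNA was thus about level in MDA-MB468, and in BT549 CE cells it was higher after Acetalax by 0.52 (0.49 to 0.55) from the lowest level of the 8 libraries.

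CHAC1 (chr15:41245160-41248710), which encodes an enzyme that degrades glutathione and is among the most sharply induced ATF4 targets, had 365 to 1728 counts. It was at 16.9 CPM in control and 7.52 CPM in treated parental MDA-MB468 cells, and at 20.9 and 10.8 CPM in the CE cells. In BT549 the levels were 16.7 and 29.6 CPM in parental cells and at 9.75 and 34.2 CPM in CE cells. The direction was opposite in the 2 lines: the differences were -0.99 (-1.13 to -0.84) and -0.84 (-0.97 to -0.70) in MDA-MB468 and 0.76 (0.64 to 0.88) and 1.62 (1.5 to 1.74) in BT549. CHAC1 was the 1 member, and 1 of 4 among all 14027 genes, that was higher by 0.5 in both BT549 pairs and lower by 0.5 in both MDA-MB468 pairs.

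TRIB3 (chr20:361261-378203), a pseudokinase that binds ATF4 and restrains it, was lower after Acetalax in 3 of the 4 backgrounds. It was at 269.7 CPM in control and 147 CPM in treated parental MDA-MB468 cells and at 320.5 and 165 CPM in CE cells, differences of -0.86 and -0.95. BT549 had 59.2 and 37.2 CPM in parental cells (-0.63), but 46.2 and 100.1 CPM in CE cells (1.06, interval 1.00 to 1.13). Parental and CE cells of BT549 thus differed in direction, each from 1 pair of libraries.

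DDIT3 (chr12:57910371-57914300), which encodes the transcription factor CHOP, was at 5.66 and 3.42 CPM in control and treated parental MDA-MB468 cells and at 9.04 and 6.14 CPM in the CE cells. BT549 libraries held 19.4 and 21.8 CPM in parental cells and 23.3 and 42.4 CPM in CE cells. The differences had the same signs as those of CHAC1, -0.56 and -0.47 in MDA-MB468 and 0.16 and 0.83 in BT549. Of the DDIT3 exon bases, 31.6% are also exons of MARS or MBD6 on the other strand, and the strand setting of the count is not stated, so its counts are uncertain.

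SESN2 (chr1:28586038-28609002), a leucine sensor that restrains mTORC1 signalling, was at 21.8 and 25.4 CPM in control and treated parental MDA-MB468 cells and at 27.9 and 23.1 CPM in CE cells. The levels in BT549 were 77.0 and 85.8 CPM in parental cells and at 34.5 and 97.1 CPM in CE cells. The 2 treated BT549 libraries were close, and the 1.41 (1.33 to 1.48) in CE cells was measured from a CE control at 0.448 times the parental control.

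CEBPB (chr20:48807376-48809212), a C/EBP partner of ATF4, was at 183 and 173 CPM in parental and at 184 and 147 CPM in CE cells of MDA-MB468, without and with drug, and at 129 and 175 CPM in parental and 92.0 and 221 CPM in CE cells of BT549. The difference in BT549 CE cells was 1.25 (1.2 to 1.29). CEBPG, the small C/EBP protein that pairs with ATF4, was higher by 0.95 there and differed by no more than 0.27 in size in the other 3 pairs.

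PPP1R15A (chr19:49375649-49379314), also called GADD34, the regulatory subunit that brings protein phosphatase 1 to eIF2, was higher by at least 0.5 in all 4 pairs, as were 0.406% of all genes. It went from 46.1 to 356 CPM in parental MDA-MB468 cells and from 49.99 to 84.0 CPM in CE cells. In BT549 it went from 140 to 240 CPM in parental cells and from 71.0 to 230.4 CPM in CE cells. The 7.73-fold ratio in parental MDA-MB468 cells was the largest of any member and pair, and the ratios were 1.68-fold in the CE cells of that line, 1.71-fold in parental BT549 and 3.25-fold in BT549 CE cells.

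Of the remaining regulators, JDP2, a repressor of the AP-1 family, was lower by 0.28 to 0.53 in all 4 pairs, and ATF5 differed by no more than 0.41 in size. NUPR1, a small stress-induced chromatin protein, was below 0 in both MDA-MB468 pairs and above 0 in both BT549 pairs.

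**Figure D2:**
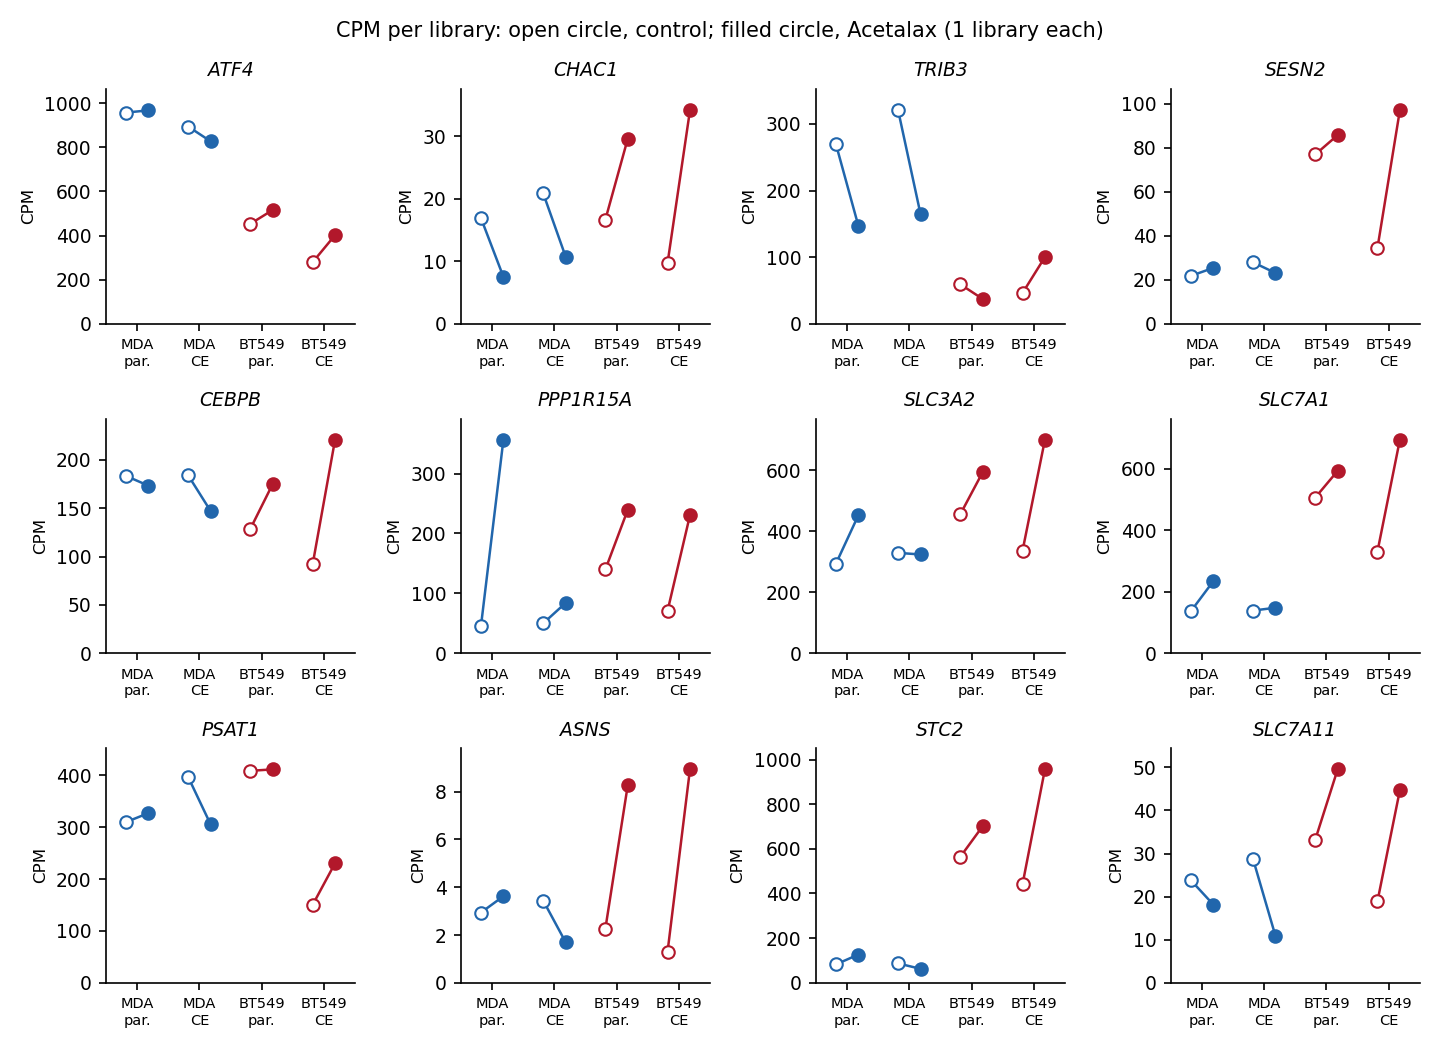
CPM of 12 members in the 8 libraries, for MDA-MB468 (blue) and BT549 (red), parental (par.) and CE cells; open circles are controls, filled circles Acetalax, and a line joins the 2 libraries of a background. Each axis starts at 0. CHAC1, CEBPB and SLC7A11 slope down in MDA-MB468 and up in BT549, and in BT549 CE cells all 12 slope up. All but ATF4 and SLC7A11 were plotted for a difference of at least 1 in some pair, mostly that of BT549 CE cells. The upward slopes there thus largely follow from the choice. Of all 46 members, 32 lay above 0 and 14 below 0 in BT549 CE cells.

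The transporters differed between backgrounds in which member was higher. SLC3A2 (chr11:62623518-62656352), the heavy chain 4F2hc that carries the light chains SLC7A5 and SLC7A11 to the membrane, was at 294 and 453 CPM in control and treated parental MDA-MB468 cells and at 329 and 324 CPM in CE cells. In BT549 it was at 456 and 595 CPM in parental cells and at 336 and 700.5 CPM in CE cells. It was thus higher by 0.61 in parental MDA-MB468 cells, within 0.02 of its control in the CE cells, and higher by 0.38 and 1.04 in BT549.

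SLC7A1 (chr13:30083547-30169825), the carrier of arginine and lysine, followed the same order. It was at 137 and 234 CPM in parental and 139 and 148 CPM in CE cells of MDA-MB468, and at 507 and 594 CPM in parental and 331 and 695 CPM in CE cells of BT549. The differences were 0.74 (0.70 to 0.79) in parental MDA-MB468 and 1.05 (1.03 to 1.08) in BT549 CE cells, against 0.09 and 0.23 in the other 2 backgrounds.

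SLC7A5, the light chain of the leucine transporter LAT1, was higher by 0.83 in parental MDA-MB468 cells and by 0.36 in BT549 CE cells. SLC7A11, the cystine importer xCT that supplies glutathione synthesis, was at 23.8 and 18.2 CPM in parental and 28.7 and 10.9 CPM in CE cells of MDA-MB468. In BT549 it was at 33.2 and 49.5 CPM in parental and 18.9 and 44.7 CPM in CE cells. Its differences of -0.27 and -0.90 in MDA-MB468 and 0.47 and 0.93 in BT549 had the signs of those of CHAC1 and DDIT3. The glutamine carrier SLC1A5, the serine and alanine carrier SLC1A4 and the glycine carrier SLC6A9 stayed within 0.5 in each Acetalax pair.

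Of the 6 enzymes that make serine and glycine and feed one-carbon units, none was higher by 0.5 in either parental line or in MDA-MB468 CE cells, and 2 were in BT549 CE cells. PSAT1 (chr9:80912059-80945009), the transaminase of the serine pathway, was at 310.0 and 327 CPM in parental and 396 and 305 CPM in CE cells of MDA-MB468. In BT549 it was at 409 and 412 CPM in parental cells and at 150 and 230.5 CPM in CE cells. The higher value in treated BT549 CE cells (0.61) was therefore still below that of untreated parental cells. MTHFD2, the mitochondrial folate enzyme, was higher by 0.93 in BT549 CE cells and lower by 0.44 in MDA-MB468 CE cells.

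PSPH, the last enzyme of the serine pathway, was lower by 0.68 and 0.91 in parental and CE cells of MDA-MB468. PHGDH, its first enzyme, lay between -0.37 and 0.17, and SHMT2, which splits serine into glycine and a one-carbon unit in mitochondria, between -0.29 and -0.15. ALDH1L2, a mitochondrial folate dehydrogenase, lay between -0.34 and 0.06.

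The 12 member synthetases charge tRNAs in the cytosol (GARS serves mitochondria too), and 6 of them (GARS, SARS, MARS, TARS, CARS and YARS) were higher by at least 0.5 in BT549 CE cells, from 0.53 to 0.70. GARS was at 462 and 759 CPM in these cells without and with drug, and TARS at 246 and 392 CPM. In the other 3 backgrounds none of the 12 passed 0.5 in either direction, and in MDA-MB468 CE cells all 12 lay below 0, from -0.48 to -0.07. EPRS and LARS were below 0 in each of the 4 pairs, as was AARS.

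The other synthetase genes give the background of this list. Of 8 further cytosolic synthetases, none was higher and 1 (QARS) lower by 0.5 in BT549 CE cells, with a median of -0.10 against 0.42 for the 12 members. Of 16 mitochondrial synthetases compared, none was higher and 5 were lower there, with a median of -0.34. TARS2, HARS2 and AARS2 were lower in all 4 pairs, by up to 1.27, 0.99 and 0.95. Of the cytosolic genes QARS and DARS were, by 0.15 to 0.60 and by 0.10 to 0.46. RARS was level in MDA-MB468 CE cells (-0.001) and lower by 0.11 to 0.41 in the other pairs. The 12 were named as ATF4 targets with earlier results of these data known, so the contrast is a description of the 3 lists.

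**Figure D3:**
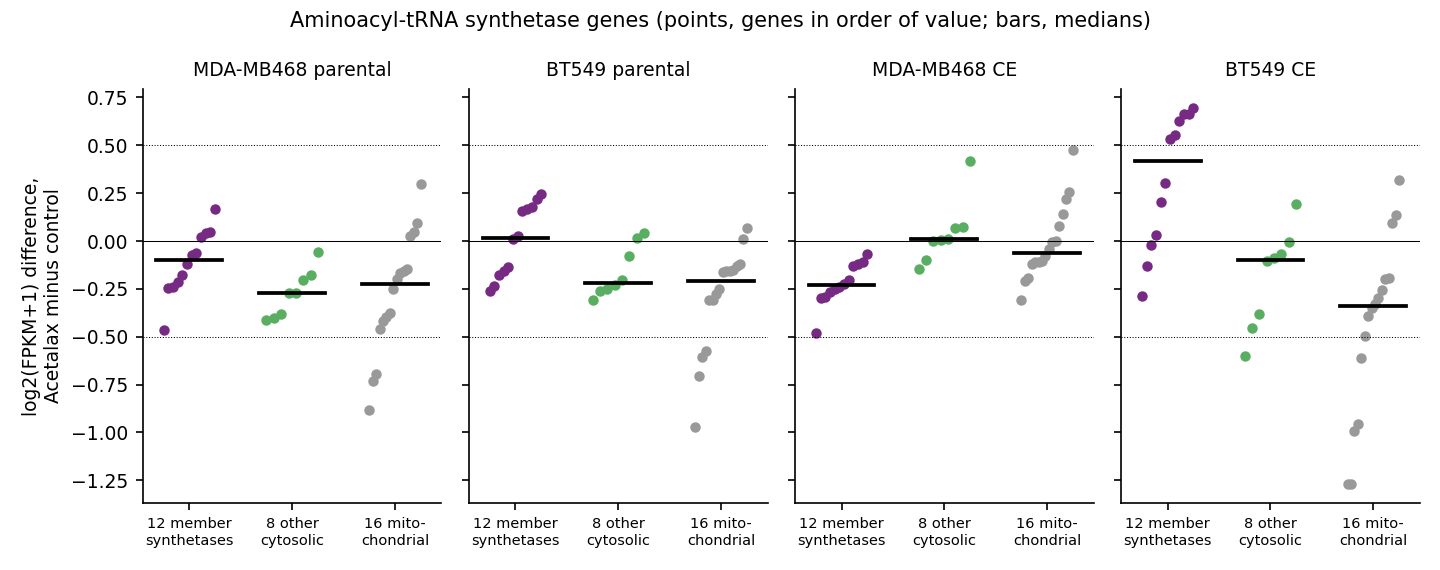
Acetalax minus control difference in log2(FPKM + 1) for the 12 member tRNA synthetases, 8 other cytosolic and 16 mitochondrial synthetases in each background. Points are genes in order of value, bars are medians and dotted lines mark 0.5 in size. In the first 3 panels the medians of the lists lie between -0.27 and 0.02, and in BT549 CE cells the member median of 0.42 lies above those of -0.10 and -0.34.

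ASNS (chr7:97481430-97501854), asparagine synthetase and a classical ATF4 target, had the lowest mean level per length of all 46 members, 0.83 FPKM, with 71 to 452 counts per library. Its counts in parental MDA-MB468 cells were 143 in control and 176 after Acetalax (2.94 and 3.62 CPM), and in the CE cells 152 and 81 (3.44 and 1.70 CPM). In parental BT549 cells they were 96 and 360 (2.27 and 8.28 CPM), and in BT549 CE cells 71 and 452 (1.31 and 8.94 CPM). The ratio of CPM was 3.64-fold in parental and 6.83-fold in CE cells of BT549, the largest of the members in each, while the log2(FPKM + 1) differences of 0.88 and 1.16 are damped by the low level. In MDA-MB468 CE cells the level was 2.02-fold lower after the drug. The counting leaves out reads that fall on more than 1 annotated gene, and the annotation used for it is not given in the sources used here, so the level of ASNS and its ratios are uncertain.

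CTH and CBS, which make cysteine from methionine, were at means of 2.18 and 1.08 FPKM, a level at which the log2(FPKM + 1) difference is damped too. CTH was lower by 0.52 in BT549 CE cells, a CPM ratio of 2.02-fold, and CBS was higher by 0.47 in parental MDA-MB468 cells, a CPM ratio of 1.70-fold. GPT2, PYCR1 and ALDH18A1 lay within 0.29 of their controls in each background. PCK2, mitochondrial phosphoenolpyruvate carboxykinase, was lower in all 4 pairs, by 0.36 to 0.51.

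Among the 3 other targets, STC2 (chr5:172741716-172756506), a secreted glycoprotein induced by endoplasmic reticulum stress, was at 82.4 and 126 CPM in parental and 86.7 and 62.4 CPM in CE cells of MDA-MB468. Its levels in BT549 were 564 and 702 CPM in parental and 441 and 956 CPM in CE cells. It differed in direction between parental (0.59) and CE cells (-0.44) of MDA-MB468 and was higher in both BT549 backgrounds (0.31 and 1.11). VLDLR, a lipoprotein receptor, was lower in all 4 pairs, from 0.29 in parental BT549 to 0.80 in BT549 CE cells. XPOT, which exports tRNA from the nucleus, stayed within 0.25.

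A total of 8 members lay above 0 in both BT549 pairs and below 0 in both MDA-MB468 pairs: DDIT3, CHAC1, CEBPB, NUPR1, SLC7A11, SARS, IARS and TARS. This is 17.4% of the members, where 7.15% of all genes had this pattern. The opposite pattern was seen for 1 member, ATF5 (2.17%, against 10.0% of all genes). Some of these signs rest on values near 0. In parental BT549 cells SARS differed by 0.012 (-0.018 to 0.042) and IARS by 0.024 (0.001 to 0.048). CEBPB in parental MDA-MB468 cells differed by -0.081, and by -0.006 with DESeq2 size factors. Both patterns were counted with total-count scaling only, and at 0.5 only CHAC1 kept the first. An edgeR quasi-likelihood fit with an Acetalax term for each line, in which parental and CE cells serve as the 2 backgrounds of a line, called 2 of the 46 members (4.35%) at an adjusted p under 0.05, where 1.78% of 19693 genes were called. They were CHAC1, with a log2 fold change larger by 2.43 in BT549, and ASNS, larger by 2.69. The members were set up with these ratios, so the count and both values are a description.

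**Figure D4:**
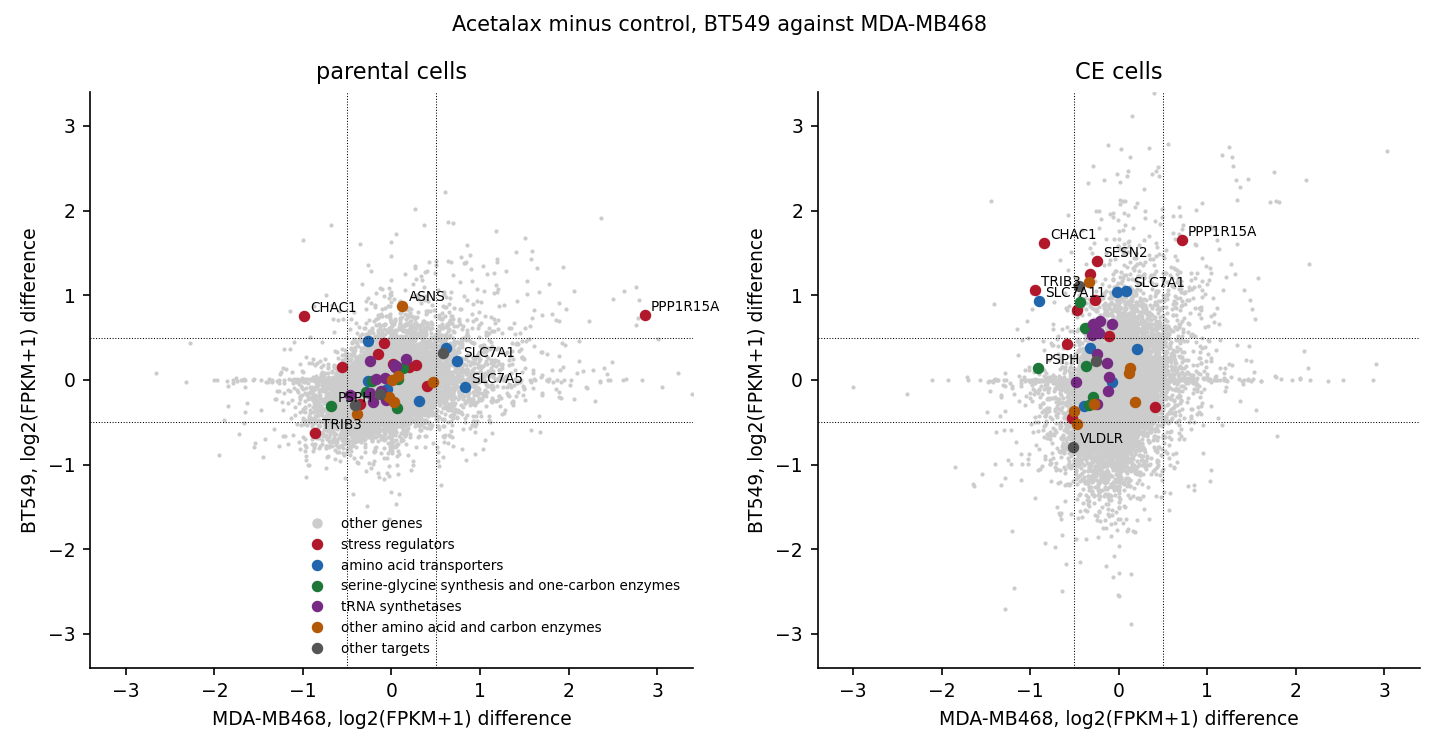
Acetalax minus control difference in log2(FPKM + 1) in MDA-MB468 (x axis) and BT549 (y axis), in parental cells (left) and CE cells (right), for the 46 members (coloured by group) and the other genes compared (grey). Dotted lines mark 0.5 in size, and 6 genes on the left and 4 on the right lie outside the axes. In CE cells only CHAC1, TRIB3 and SLC7A11 of the members are past 0.5 in both lines in opposite directions, higher in BT549 and lower in MDA-MB468. CHAC1 and TRIB3 are above 1 in BT549 and below -0.8 in MDA-MB468. The share of all genes with this pattern in CE cells was not counted.

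Over the 4 Acetalax pairs taken as replicates, edgeR called 2 of the 46 members (4.35%), where 5.0% of 19693 genes were called. They were PPP1R15A, with a log2 fold change of 1.62 and a higher value in 4 of 4 pairs, and VLDLR, with -0.65 and a lower value in 4 of 4 pairs. These values too are a description, since the ratios set up the group. Without the parental MDA-MB468 pair no gene of the whole table was called, and without the parental BT549 pair no member was. VLDLR was no longer called whichever of the 4 pairs was left out, and PPP1R15A was called only without the MDA-MB468 CE pair. Without the BT549 CE pair the 1 member called was TRIB3. The p-values behind these calls measure the spread between libraries of 2 lines, since nothing in the labels makes the pairs separate cultures.

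Other genes of the response were taken from lists of pathway genes that are not members. Of 15 further ATF4 targets compared, 10 were higher and 1 lower in BT549 CE cells, 7 and 0 in parental BT549, 3 and 1 in parental MDA-MB468 and 1 and 2 in MDA-MB468 CE cells. The shares of all genes higher and lower, given above, were 7.05% and 16.2% in BT549 CE cells, 3.33% and 5.17% in parental BT549, 7.66% and 8.15% in parental MDA-MB468 and 4.25% and 4.24% in MDA-MB468 CE cells, and they hold for each pathway list. GADD45A, a growth arrest gene, was higher by 1.05 to 2.53 in all 4 backgrounds, and the glutamine carrier SLC38A2 by 0.18 to 1.34. DDIT4, an mTORC1 inhibitor also called REDD1, was lower in all 4, by 0.47 to 1.89. ATF3 and HERPUD1, named after their values were seen, were higher by 1.83 and 1.60 in parental BT549 and by 2.33 and 2.77 in BT549 CE cells, while in MDA-MB468 they lay between -0.36 and 0.37.

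Of 17 genes for eIF2 kinases, eIF2, its exchange factor eIF2B and its phosphatase, 2 were higher and 2 lower in BT549 CE cells. PPP1R15B, the constitutive counterpart of PPP1R15A, named after its values were seen, was higher by 0.65 and 0.80 in parental MDA-MB468 and BT549, 0.17 in MDA-MB468 CE and 1.29 in BT549 CE cells. OMA1, the mitochondrial protease that relays mitochondrial damage to the eIF2 kinase HRI, was lower by 0.35 to 0.70 in all 4 pairs, and IMPACT, an inhibitor of GCN2 activation, by 0.24 to 0.80. EIF2B1 was lower by 0.22 to 0.43.

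Among 16 further amino acid transporters compared, 3 were higher and 1 lower in parental MDA-MB468, and 2 were higher and 2 lower in BT549 CE cells. SLC38A2 is on this list as well as on that of the further ATF4 targets, and is among the higher genes in both of these backgrounds. SLC6A6, the taurine carrier, was higher in all 4 pairs, by 0.53 to 1.33, as was the lysosomal carrier SLC36A1, by 0.22 to 0.43. SLC43A2, a carrier of branched-chain amino acids, was lower in all 4, by 0.20 to 1.04. Of 10 other one-carbon enzymes, 1 was higher and 1 lower in BT549 CE cells, and SHMT1, the cytosolic form, was lower by 0.32 to 0.77 in all 4 pairs. MTHFD1 and TYMS were lower as well, by at most 0.30 and 0.32.

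In untreated BT549 cells, 12 of 46 members were lower in CE control than in parental control cells by at least 0.5 and 2 were higher, where 10.4% and 10.7% of all genes were. In MDA-MB468, none was lower and 2 were higher, where 2.7% and 3.17% of all genes were. The median of the members was -0.25 in BT549 and 0.11 in MDA-MB468. These control libraries are the same that enter the Acetalax differences, so a low BT549 CE control lowers the one difference and raises the other. The keratin genes KRT8 and KRT18, epithelial markers, were at 1.25 and 6.67 CPM in parental and at 34.4 and 47.9 CPM in CE controls of BT549, and the mesenchymal gene FN1 was lower in CE controls by 1.43; their part in the result was not tested.

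PSAT1 was the lowest, at 150 CPM in CE against 409 CPM in parental BT549 control cells (-1.43, interval -1.47 to -1.39), and SESN2 was at 34.5 against 77.0 CPM (-1.08). PPP1R15A followed with -0.95, IARS with -0.80, SLC7A5 with -0.78, YARS with -0.74, ATF4 with -0.69, CHAC1 with -0.67 and PHGDH with -0.63. The other 3 were SLC7A1, SLC7A11 and TARS, between -0.60 and -0.52. All groups but the other enzymes and the other targets thus had members among the 12.

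The 2 members higher in BT549 CE control cells were PYCR1 and ALDH18A1, by 0.61 and 0.54, which encode successive enzymes of proline synthesis. PYCR1 was at 59.5 CPM in parental and 92.3 CPM in CE cells, and ALDH18A1 at 205 and 301 CPM. Of the PYCR1 exon bases, 14.1% are shared with MYADML2 on the same strand. In MDA-MB468 the 2 higher members were PCK2 and DDIT3, both by 0.57.

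Treated CE against treated parental cells had 5 members higher and 2 lower in BT549, where 8.7% and 13.3% of all genes were. The 2 were PSAT1, lower by 0.83, and IARS, lower by 0.52. TRIB3 was higher by 1.35 and DDIT3 by 0.92. In MDA-MB468, 1 member was higher and 4 were lower after Acetalax, where 5.25% and 5.4% of all genes were, and PPP1R15A was lower by 2.04 in CE than in parental cells. An edgeR fit over the 4 CE-parental pairs called 0 of the 46 members and 0.117% of 19693 genes. At an unadjusted p under 0.05, 6 members passed in the edgeR fit, as did 14.8% of all genes.

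The comparison of the lines uses no ratio that set up the group of genes. The members were still chosen with earlier results of these libraries known, so it is not independent of that choice. With the 4 matched conditions as replicates, edgeR called 24 of the 46 members (52.2%) between BT549 and MDA-MB468, 14 higher and 10 lower in BT549. The conditions are not replicate cultures of a line, so the p-values of this fit, here and below, measure the spread between these 8 libraries only. Of all 19693 genes 56.8% were called, 27.3% higher and 29.5% lower in BT549, so the share of the members was close to that of genes at large. The libraries of the 2 lines did not overlap for 24 members, which is also 52.2%, against 56.2% of the 14027 genes.

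STC2 stood highest above MDA-MB468, at 441 to 956 CPM in BT549 against 62.4 to 126 CPM, a log2 fold change of 3.04 (SE 0.318, edgeR adjusted p = 0.00046). DDIT3 was at 19.4 to 42.4 CPM against 3.42 to 9.04 CPM (2.32, SE 0.310, edgeR adjusted p = 0.00119). SLC7A1 was at 331 to 695 CPM against 137 to 234 CPM (1.84, edgeR adjusted p = 0.000696). SESN2 (1.67) and ALDH18A1 (1.30) followed, with edgeR adjusted p = 0.00472 and 0.000843. The ranges of the lines did not overlap for these 5 genes.

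JDP2 was the member furthest below MDA-MB468, at 4.14 to 8.02 CPM in BT549 against 26.9 to 42.3 CPM (-2.41, SE 0.171, edgeR adjusted p = 0.000107). PSPH was at 38.1 to 52.8 CPM against 162 to 306 CPM (-2.25, edgeR adjusted p = 0.000338). GPT2, the mitochondrial alanine transaminase, differed by -1.84, the serine and alanine carrier SLC1A4 by -1.80 and TRIB3 by -1.77, with edgeR adjusted p from 0.00012 to 0.00608. The ranges of the lines did not overlap for these 5 either.

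ATF4 was lower in BT549, at 279 to 516 CPM against 827 to 968 CPM (-1.01, SE 0.162, edgeR adjusted p = 0.00247). PHGDH was lower as well, by 1.47 on the log2 scale, so 2 of the 3 enzymes that make serine were lower in BT549, while PSAT1 between them was not called. The 4 synthetases called (WARS, AARS, LARS and NARS) were all higher in BT549. The groups thus did not move as one: 3 stress regulators were higher and 3 lower, and of the other amino acid and carbon enzymes 1 was higher and 4 were lower.

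**Figure D5:**
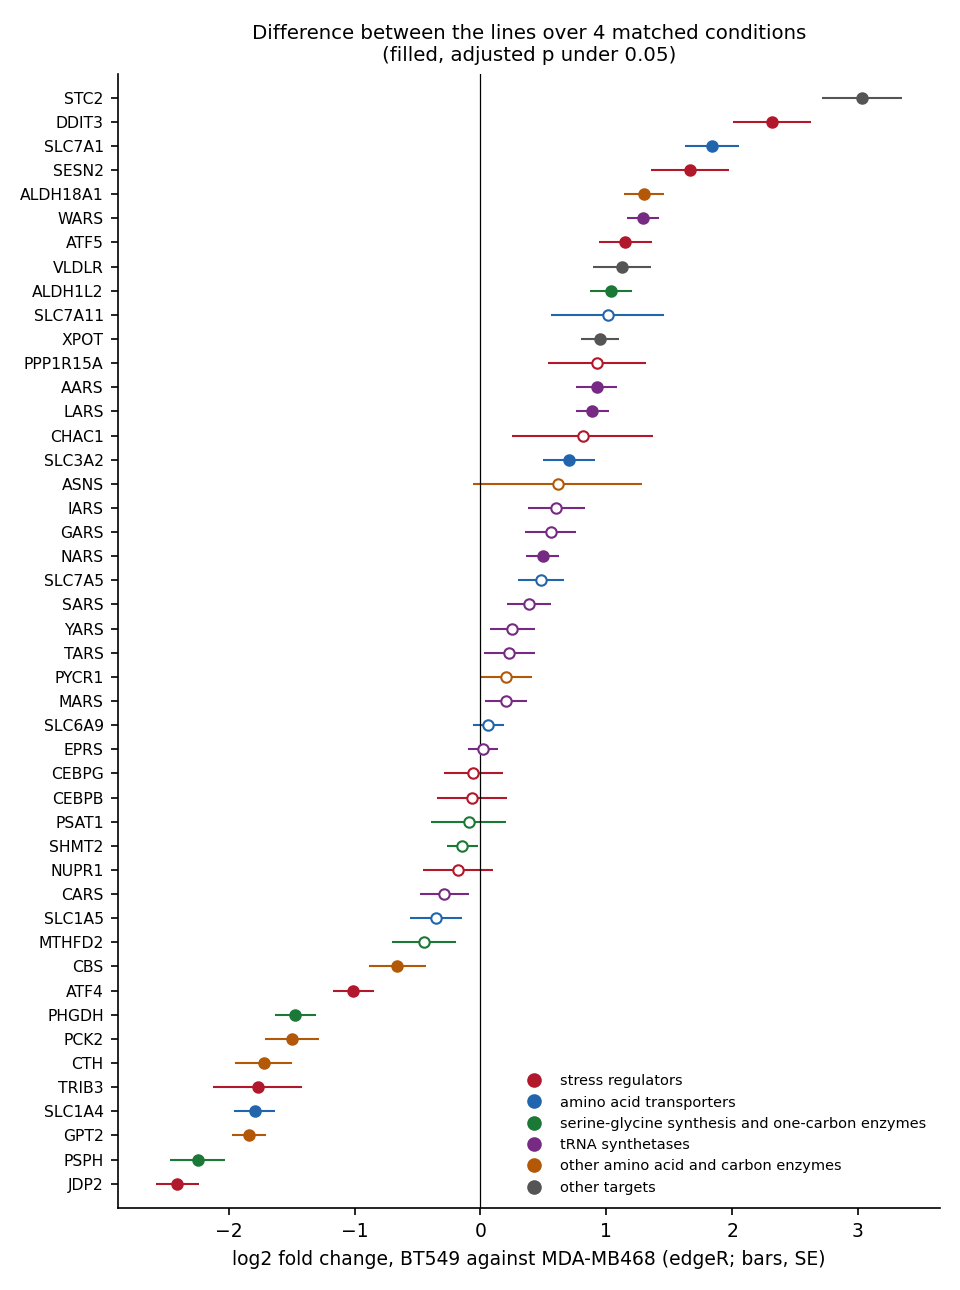
Log2 fold change of the 46 members between BT549 and MDA-MB468 (edgeR, 4 matched conditions; bars are standard errors; filled points have an adjusted p under 0.05), coloured by group. The values run from -2.41 for JDP2 to 3.04 for STC2, with 14 filled points above 0 and 10 below.

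On the per-length scale the levels of the members spanned a wide range. ATF4 had the highest mean, 254 ± 106 FPKM (SD over the 8 libraries, which differ in condition), followed by SLC7A5 at 149 ± 38.0, PSAT1 at 144 ± 41.7 and SLC1A5 at 99.3 ± 23.7 FPKM. The ranges of SLC7A5 and PSAT1 over the 8 libraries overlapped, and the order of their means was not tested. VLDLR, CTH, CBS and ASNS had the lowest means, from 2.49 down to 0.83 FPKM.

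Members with and without the TGATGNAA letters near their start were also set side by side. In BT549 CE cells, 9 of the 15 with the letters were higher by 0.5 and none lower, with a median of 0.66. Of the 22 members whose windows lacked them, 10 were higher and 2 lower, with a median of 0.30. In MDA-MB468 CE cells the medians were -0.26 and -0.31, and in parental BT549 0.17 and -0.01. These values are a description, and no test was made of them.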

How the data were processed

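The data were 8 RNA-seq libraries, 1 per condition. RNA was poly(A)-selected and read as pairs of 101 bases. The authors aligned reads to hg19 with STAR (2.7.11b per the submitters' processing notes) and deposited raw counts per gene from its GeneCounts option. The annotation and strand column are not given in the sources used here, so genes overlapping on opposite strands are uncertain. Of 58154 rows, 2475 repeated an identifier and were used once.

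FPKM was computed from the deposited counts with merged exon lengths (GENCODE release 44, lifted to hg19) and total counts on genes. Genes averaging 1 CPM or more were compared at a pseudocount of 1. Intervals are 95% Wilson intervals combined for a difference, and cover counting error only. Tests used edgeR 4.0.16 (quasi-likelihood, TMM, filterByExpr, Benjamini-Hochberg, R 4.3.3), with DESeq2 1.42.0, other scalings, filters, pseudocounts and left-out pairs as alternatives. The fits were also run on simulated counts with equal levels in all libraries except for some chosen genes. That setting differs from these libraries, so the run does not show how the tests behave on them. Members with a difference of at least 1 in any of the 6 pairs, and ATF4, were given in full, as were the 5 called members with the largest difference in each direction between lines, and from each pathway list the 3 genes with the largest smallest difference in one direction over the Acetalax pairs. The members and lists were chosen with earlier results of these data known.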

Additional observations from a re-analysis of the deposited data

Results flagged for a closer look

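In the edgeR fit with an Acetalax term for each line, the log2 fold change of CHAC1 was larger by 2.43 in BT549 than in MDA-MB468, and that of ASNS by 2.69, with parental and CE cells as the 2 backgrounds of each line. Both were called there, but ratios after Acetalax set up this group of genes, so the values are a description. ASNS had 71 to 452 counts per library, and its level is uncertain because reads on more than 1 annotated gene are left out and the annotation used is not given in the sources used here.

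Single pairs of the 2 lines also lay at least 0.5 apart from their controls in opposite directions, a difference that was not tested within parental or CE cells because each is 1 pair per line. In parental cells CHAC1 was higher by 0.76 in BT549 and differed by -0.99 in MDA-MB468. In CE cells CHAC1 differed by 1.62 and -0.84, TRIB3 by 1.06 and -0.95 and SLC7A11 by 0.93 and -0.90, in BT549 and MDA-MB468 respectively. The exons of CHAC1 and TRIB3 share no bases with another counted gene, and 9.0% of those of SLC7A11 are shared with an antisense transcript.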

How the results depend on the processing

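Counts of members past 0.5 stayed within 1.5 times of the values given in most alternatives. With TMM scaling, 5 members were higher in parental BT549 cells, 5 were lower in MDA-MB468 CE cells and 1 was lower in BT549 CE cells. In the same order, 615, 438 and 1667 of 14027 genes were. DESeq2 size factors also gave 5 and 1 for the last 2, where 417 and 1493 of 14027 genes were lower. With CPM in place of FPKM, 2 members were lower in parental BT549 cells, as were 1545 of 14030 genes. In that setting 4 members were higher in BT549 CE than parental controls, as were 2082 genes. A pseudocount of 0.1 also gave 2 members lower in parental BT549 cells, with 1808 of 14027 genes. At a size of at least 1, Acetalax left 1 member higher and 0 lower in parental MDA-MB468, 0 and 0 in parental BT549 and in MDA-MB468 CE cells, and 9 and 0 in BT549 CE cells. Of 14027 genes, 309 were higher and 111 lower in parental MDA-MB468 and 83 and 24 in parental BT549. In CE cells these were 109 and 75 in MDA-MB468 and 301 and 408 in BT549. The CE-parental controls left 0 members higher in either line and 2 lower in BT549. Genes higher there were 57 in MDA-MB468 and 508 in BT549, and 277 were lower in BT549.

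For Acetalax over the 4 backgrounds, DESeq2 called 2678 genes with 6 members, and edgeR without filterByExpr 3585 with 12, against 984 and 2. Leaving out 1 pair gave 0 to 554 genes and 0 to 1 members, with 0 genes without the parental MDA-MB468 pair. The parental and CE terms alone called 0 genes and 0 members, and TRIB3 was reversed to 0.19 in the CE term. For CE against parental cells, DESeq2 called 925 genes with 1 member and the unfiltered fit 446, against 23 and 0. The member was DDIT3, whose counts are uncertain because its exons overlap genes on the other strand. Leaving out 1 pair gave 0 to 10 genes and the 4 controls alone 0. For the difference between lines in the response, DESeq2 called 926 genes with 6 members and the unfiltered fit 1632 with 14, against 351 and 2, and CHAC1 and ASNS were called in all 3 alternatives. Between the lines, 21 to 26 members (45.7% to 56.5%) were called when 1 condition was left out, and the 10 named ones in each alternative. The main fit called 24 (52.2%), where 56.8% of all genes were called. The genes tested differ between the alternative fits of this paragraph. Their counts of members are therefore not set against a share of all genes, and nothing is read from them. The fits already block on the matched condition, and no replicate block could be added because the labels carry no replicate numbers. With 1 library per condition, spread between cultures could not be measured.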
